A study of Mus musculus with 2 samples.

Results

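The miR-200 family and the epithelial microRNAs Mir203 and Mir205 were examined in the midbrain of newborn mice. The 7 hairpins Mir200b, Mir200a, Mir429, Mir200c, Mir141, Mir203 and Mir205 were taken by gene symbol, and all 7 were found among the 1973 genes of the count tables. The series holds small RNA libraries (size range under 30 bases) from 2 pups of the B6NCrl strain on postnatal day 0, pup 3 and pup 1, each made from total RNA of a single midbrain. There is 1 group, with no second tissue, age, genotype or treatment, so the questions asked were how much of each hairpin the midbrain held, how closely the animals matched and whether the hairpins of a cluster kept their proportions. The labels call the animals biological replicates, but both carry the same donor identifier and sex was not collected.

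MicroRNAs are cut from hairpin precursors and repress messenger RNAs that pair with the seed, bases 2 to 8 of the mature strand. The miR-200 family is made in epithelial cells, where it represses the transcription factors Zeb1 and Zeb2 that drive the change of epithelial into mesenchymal cells, and Zeb1 and Zeb2 in turn repress the family's genes. In the brain the family is known from olfactory neurons and from neural progenitors. Mir203 limits the renewal of skin progenitors as they differentiate, and Mir205 is a microRNA of stratified epithelium and gland progenitors.

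The family comes from 2 loci, each a cluster of hairpins, and its 3p strands, the arms usually active, fall into 2 seed groups. The 3p strands are printed from RefSeq (GRCm38.p6), 5′ to 3′, with the seed in capitals, because the seed groups and the small differences between strands bear on every count below. The strands of Mir200b, Mir429 and Mir200c share the seed AAUACUG.
miR-200b-3p (chromosome 4): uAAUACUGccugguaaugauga
miR-429-3p (chromosome 4): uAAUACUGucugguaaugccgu
miR-200c-3p (chromosome 6): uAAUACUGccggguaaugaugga
Those of Mir200a and Mir141 share the seed AACACUG.
miR-200a-3p (chromosome 4): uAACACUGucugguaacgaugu
miR-141-3p (chromosome 6): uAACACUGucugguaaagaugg
Between the seed groups the seed differs by U4C, counted from 1 at the 5′ end of the mature strand, with the base of miR-200b-3p first and that of miR-200a-3p second. Each locus holds both seeds. Within a seed group, miR-200b-3p and miR-200c-3p differ at 2 of 22 positions (U11G and A22G), as do miR-200a-3p and miR-141-3p (C17A and U22G). No other mature microRNA of the RefSeq table carries either seed.

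The other 2 hairpins share neither seed, nor a seed with each other. Their usual active strands are the 3p strand of Mir203 and the 5p strand of Mir205.
miR-203-3p (chromosome 12): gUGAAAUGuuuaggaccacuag
miR-205-5p (chromosome 1): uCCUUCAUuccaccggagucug
The counts are per hairpin and do not separate its arms, so the seed of an individual read was not measured.

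The strands miR-200b-3p and miR-200c-3p lie in the hairpins shown here with both mature arms in capitals, 5p before 3p.
Mir200b hairpin: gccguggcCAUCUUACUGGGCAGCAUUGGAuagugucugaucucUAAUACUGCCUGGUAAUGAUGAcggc
Mir200c hairpin: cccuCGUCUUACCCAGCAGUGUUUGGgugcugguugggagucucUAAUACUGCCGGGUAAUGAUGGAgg
None of the 7 hairpins shares an exact run of 20 or more bases with any of the other 2201 microRNA transcripts of GENCODE M21, and no mature arm of the 7 occurs whole in another RefSeq hairpin. Outside its own hairpin, an arm was found whole only in longer transcripts over the same locus (Gm13648 for Mir429, Gm29008 for Mir141, 4631405K08Rik for Mir205). This bears on the levels, since reads that map to several places were counted in no gene and took 39.8% of all reads in pup 3 and 38.7% in pup 1. Copies elsewhere in the genome were not searched for.

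On GRCm38, which is the mm10 assembly of the files, the chromosome 4 cluster lies on the minus strand in the order Mir200b, Mir200a, Mir429. Mir200b (ENSMUSG00000065549.2) runs from 156055681 to 156055750, Mir200a (ENSMUSG00000065400.1) from 156054896 to 156054985 and Mir429 (ENSMUSG00000065427.1) from 156053905 to 156053987. Gaps of 695 and 908 bases separate them. All 3 lie in an intron of the protein-coding gene Ttll10 and within the noncoding gene Gm13648, Mir429 in an exon of it and the others in an intron. The pair Mir200c (ENSMUSG00000065462.2, 124718322 to 124718390) and Mir141 (ENSMUSG00000065474.1, 124717914 to 124717985) lies 336 bases apart on the minus strand of chromosome 6, in an intron of the antisense gene Gm15884. Mir203 (ENSMUSG00000065574.1) lies on the plus strand of chromosome 12 from 112130880 to 112130955, in no other gene of GENCODE M21. Mir205 (ENSMUSG00000065533.1) lies on the minus strand of chromosome 1 from 193507463 to 193507530, where it overlaps an exon of the long noncoding gene 4631405K08Rik.

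The libraries held 3195277 counts on the own strand of a gene in pup 3 and 2337113 in pup 1, and each level below is in CPM, own-strand counts of a hairpin per 1000000 of these. A count of 0 would allow up to 3 counts, which is 0.939 CPM in pup 3 and 1.28 CPM for pup 1. Intervals are exact 95% intervals and cover counting error only, as the reads were not collapsed to molecules. A small RNA read covers 1 mature arm, so CPM was not divided by hairpin length. Every p-value below compares these 2 libraries and measures no spread beyond their reads.

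In the chromosome 4 cluster every hairpin was higher in pup 3 than in pup 1. Mir429 had 983 counts in pup 3 and 126 in pup 1, or 308 CPM (interval 289 to 327) against 53.9 CPM (44.9 to 64.2). Its level was 5.46-fold higher in pup 3 after TMM scaling, with an interval of 4.55 to 6.65-fold (log2 ratio 2.45, adjusted Fisher's exact p = 1.67e-111). Mir429 is the most abundant of the 5 family members, with more counts than the other 4 together in each pup.

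Mir200b had 378 counts in pup 3 and 42 in pup 1, or 118 CPM (107 to 131) against 18.0 CPM (13.0 to 24.3). It was 6.27-fold higher in pup 3 (4.59 to 8.91-fold, log2 ratio 2.65, adjusted Fisher's exact p = 4.28e-47). Mir200a, between them on the chromosome, had 81 counts in pup 3 and 4 in pup 1, or 25.3 CPM (20.1 to 31.5) against 1.71 CPM (0.466 to 4.38). Its ratio was the highest of all genes tested at 13.0-fold, but with 4 counts in pup 1 the interval ran from 5.34 to 53.4-fold (log2 ratio 3.70, adjusted Fisher's exact p = 2.57e-14).

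The chromosome 6 pair stood apart between the pups in the same direction. Mir200c had 392 counts in pup 3 and 46 in pup 1, or 123 CPM (111 to 135) against 19.7 CPM (14.4 to 26.3), a 5.94-fold higher level in pup 3 (4.40 to 8.31-fold, log2 ratio 2.57, adjusted Fisher's exact p = 2.95e-47). Mir141 had 64 counts in pup 3 and 4 in pup 1, or 20.03 CPM (15.4 to 25.6) against 1.71 CPM (0.466 to 4.38). It was 10.3-fold higher in pup 3 (4.18 to 42.5-fold, log2 ratio 3.36, adjusted Fisher's exact p = 1.44e-10). Like Mir200a, Mir141 reached the mean count of 10 needed for testing through pup 3 alone, so its ratio and p carry that limit. For none of the 5 hairpins did the counting intervals of the pups overlap. How many other genes had intervals apart was not counted, so this is not read as particular to the family. By another measure, 44.1% of the 372 genes tested had an adjusted Fisher's exact p under 0.05 at any fold.

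Mir203 and Mir205 differed by less than 2-fold between the pups. Mir203, the most abundant of the 7, had 1998 counts in pup 3 and 1286 in pup 1, or 625 CPM (598 to 653) against 550.3 CPM (521 to 581). The ratio after TMM scaling was 1.09-fold (1.02 to 1.17-fold, log2 ratio 0.13), far from the 2-fold that a call required. The adjusted Fisher's exact test was passed at this depth (p = 0.000978), but it used unscaled counts, where the log2 ratio was 0.18. Mir205 had 104 counts in pup 3 and 49 in pup 1, or 32.5 CPM (26.6 to 39.4) against 20.97 CPM (15.5 to 27.7), a 1.49-fold ratio (1.05 to 2.14-fold, log2 ratio 0.57, adjusted Fisher's exact p = 0.0264). Its counting intervals overlapped, and it was not called either.

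**Figure D1:**
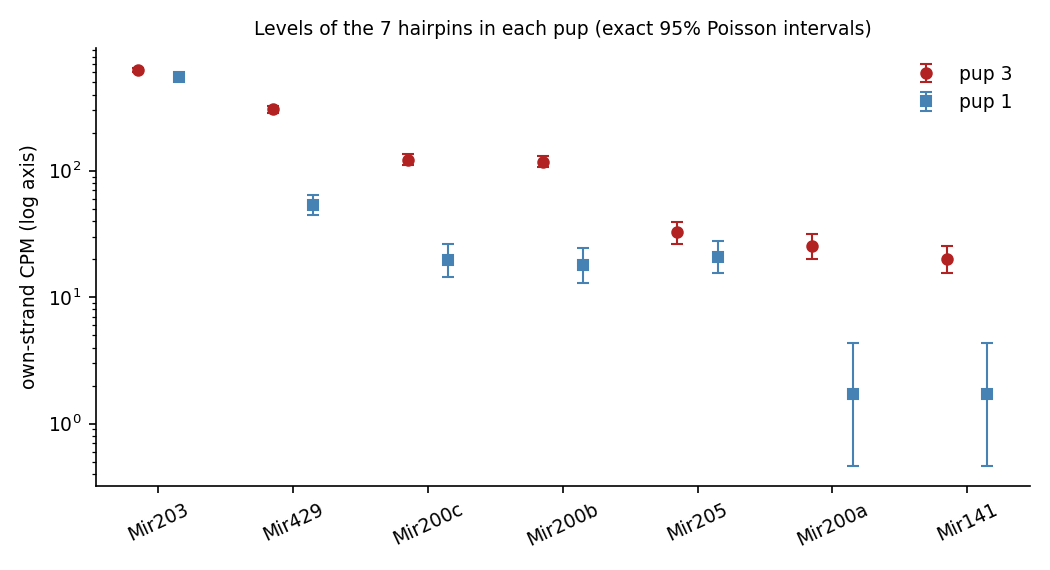
Own-strand CPM of the 7 hairpins on a log axis in pup 3 (red circles) and pup 1 (blue squares), with exact 95% Poisson intervals of the counts. The 5 miR-200 hairpins lie well above in pup 3, with 308 against 53.9 CPM for Mir429, while Mir203 stands at 625 against 550.3 CPM.

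Over all genes, 372 had a mean count of at least 10 and were tested, and 11 of them (2.96%) were called with an adjusted p under 0.05 and at least a 2-fold ratio. Of the 372, 6 (1.61%) were called higher in pup 3, and 5 of those 6 were the miR-200 hairpins. Another 5 (1.34%) were called lower in pup 3, with 0 members among them. The 2 remaining members, Mir203 and Mir205, were not called. Mir200a and Mir141 passed the count minimum through pup 3 alone, so 5 of the 7 members would be left if 10 counts were asked of each library. At any fold, 164 genes (44.1%) had an adjusted p under 0.05, all 7 members among them.

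The median log2 ratio was 2.65 over the 5 miR-200 hairpins and 2.57 over all 7 members, against 0.00 over the 372 genes tested, whose median absolute log2 ratio was 0.17. The miR-200 hairpins held the 5 highest ratios of the 372, but the 2 highest, of Mir200a and Mir141, belong to hairpins tested through pup 3 alone. Among the 359 genes with at least 10 counts in each library, Mir200b, Mir200c and Mir429 held ranks 1, 2 and 3, and their median log2 ratio was 2.57 against -0.01 over the 359. Below the family came Mir3078 with a log2 ratio of 1.42 (58 counts in pup 3 and 15 in pup 1), the only other gene called higher in pup 3. The genes nearest to the family's median ratio after it were Mir511 at 1.04, Mir196b at 0.95, Mir1948 at 0.89 and Mir224 at 0.86, none of which was called. Mir196b (17 counts in pup 3 and 6 in pup 1) and Mir1948 (19 and 7) also reached the count minimum through pup 3 alone. Their intervals held 1 (0.748 to 6.16-fold and 0.767 to 5.36-fold). Mir224 (182 and 70 counts) passed the adjusted Fisher's exact test (p = 9.94e-06) below 2-fold. Likeness here is the distance between log2 ratios over 2 libraries, and the nearest gene was already 1.23 log2 units from the family's median. No gene outside the family came within 2-fold of its median ratio.

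**Figure D2:**
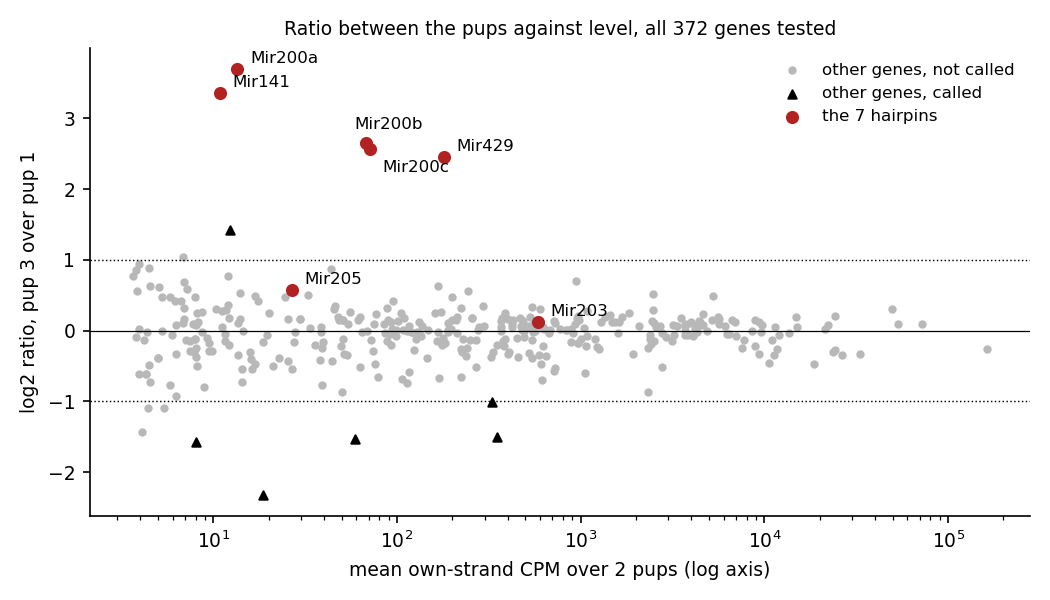
The log2 ratio of pup 3 over pup 1 (TMM scaled) against mean CPM on a log axis for the 372 genes tested. The 7 hairpins are red circles, called genes outside them black triangles and the rest grey, with dotted lines at 2-fold. The 5 miR-200 hairpins lie at 2.45 to 3.70, above every other gene, and Mir203 lies at 0.13 among the rest.

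In mean CPM the order was Mir203 at 588 ± 53.1, Mir429 at 181 ± 179, Mir200c at 71.2 ± 72.8, Mir200b at 68.1 ± 70.9, Mir205 at 26.8 ± 8.19, Mir200a at 13.5 ± 16.7 and Mir141 at 10.9 ± 13.0 (SD, n = 2). For the miR-200 hairpins the SD is about as large as the mean, so a mean over these pups describes neither animal. Of the neighbours in this order, only Mir203 and Mir429 were apart in both pups together, every CPM value of Mir203 lying above both of Mir429. Within each pup, Mir429 lay above Mir200c beyond counting error, while Mir200c and Mir200b did not differ beyond it and neither did Mir200a and Mir141.

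Mir205 changed its place between the pups. In pup 3 it lay below Mir200b beyond counting error, at 32.5 against 118 CPM, and in pup 1 it stood at 20.97 CPM with Mir200b at 18.0 CPM, within counting error. By rank among the 1973 genes, Mir429 was at 165 in pup 3 and at 249 in pup 1, Mir200c at 212 and 283, and Mir200b at 216 and 288. Mir200a was at rank 280 in pup 3 and, with 4 counts, at 417 in pup 1. Mir203 held rank 120 in pup 3 and 131 in pup 1, and Mir205 held 271 and 281.

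Genes of like level showed how closely the pups usually matched. Next to Mir429 in mean CPM stood Mir219a-1, at 183 ± 9.88 CPM, and Mir145a, at 179 ± 3.91 CPM. Next to the pair Mir200c and Mir200b stood Mir218-2 at 71.8 ± 2.47, Mir216b at 68.5 ± 1.85 and Mir30c-1 at 64.2 ± 1.25 CPM. The SD (n = 2) of Mir429, Mir200c and Mir200b was 18.2 to 56.7 times that of these neighbours. Around Mir203 stood Mir485 at 593 ± 81.0 CPM and Mir7-2 at 572 ± 24.1 CPM, SDs on either side of its own 53.1 CPM.

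The less abundant members were read in the same way. Beside Mir205 stood Mir344b at 27.6 ± 1.46 and Mir6236 at 26.7 ± 6.37 CPM. Beside Mir200a stood Mir1955 at 13.6 ± 1.96 and Mir3078 at 12.3 ± 8.30 CPM, and beside Mir141 stood Mir466n at 11.1 ± 0.624 and Mir29b-1 at 10.3 ± 1.83 CPM. Mir200a and Mir141, at SDs of 16.7 and 13.0 CPM, spread more widely than each of these 4.

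The make-up of the clusters was compared next, a measure that needs no scaling between libraries. In the chromosome 4 cluster Mir429 made up 68.2% of 1442 counts in pup 3 (65.7 to 70.6%) and 73.3% of 172 counts in pup 1 (66.0 to 79.7%). Mir200b made up 26.2% in pup 3 (24.0 to 28.6%) and 24.4% in pup 1 (18.2 to 31.5%). Mir200a, although cut from between them, made up 5.62% in pup 3 (4.49 to 6.93%) and 2.33% in pup 1 (0.637 to 5.85%). All 3 pairs of intervals overlapped.

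On chromosome 6, Mir200c made up 86.0% of 456 counts in pup 3 (82.4 to 89.0%) and 92.0% of 50 counts in pup 1 (80.8 to 97.8%). Mir141 made up the other 14.0% in pup 3 (11.0 to 17.6%) and 8% in pup 1 (2.22 to 19.2%). In both loci the hairpin with the AACACUG seed was the scarce one. Counts of hairpins cut from 1 transcript also carry differences in processing, stability and capture by the library protocol, which were not measured.

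**Figure D3:**
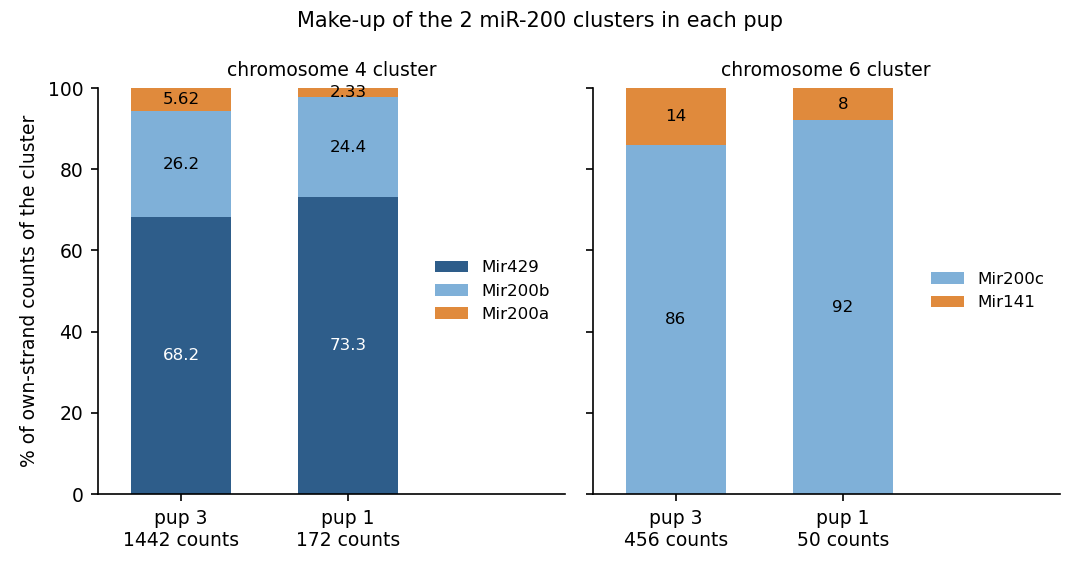
Share of each hairpin in the own-strand counts of its cluster, in percent, for pup 3 and pup 1, with the counts behind each bar below it. Mir429 fills most of the chromosome 4 cluster in both pups (68.2% and 73.3%) and Mir200c most of the chromosome 6 pair (86.0% and 92.0%).

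Set against all clustered hairpins, none of the family's 4 pairs changed its ratio between the pups by the call rule. Over the genome, 351 pairs of hairpins on the same strand and within 10 kb, each hairpin averaging 10 counts or more, were tested, and 6 (1.71%) were called with an adjusted p under 0.05 and a 2-fold change. The pairs of a cluster share hairpins, and 156 hairpins made up the 351. At any fold, 150 pairs (42.7%) had an adjusted p under 0.05, and 0 of the family's 4 pairs did. These pairs are not of like depth, so the 0 does not show steadier ratios. In pup 1 the family's hairpins had 4 to 126 counts. Mir541 and Mir369, the pair with the lowest Fisher's exact p, had 11882 and 28924 there. Over the 351 pairs the median absolute log2 change was 0.23, and by its size the family's pairs ranked 4, 7, 21 and 200. The change reached 2-fold in 8 of the 351 pairs, and 2 of these 8 were family pairs, both with Mir200a and its 4 counts in pup 1.

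Mir200b stood at 0.385 counts per count of Mir429 in pup 3 and 0.333 in pup 1, a log2 change of 0.20 with an interval of 0.790 to 1.71-fold (adjusted Fisher's exact p = 0.640). The pairs that hold Mir200a leaned towards Mir200a in pup 3. Mir200a per Mir429 was 0.0824 in pup 3 and 0.0317 in pup 1, a log2 change of 1.22 (0.95 to 9.92-fold, adjusted Fisher's exact p = 0.141, unadjusted 0.0686), and Mir200a per Mir200b had a log2 change of 1.02 (0.782 to 8.87-fold, adjusted Fisher's exact p = 0.267). Mir141 per Mir200c had a log2 change of 0.76 (0.651 to 7.42-fold, adjusted Fisher's exact p = 0.441). Both scarce hairpins had 4 counts in pup 1, where the proportions of pup 3 would give 9.66 for Mir200a and 7.02 for Mir141, so a change of up to several fold was not detectable at this depth.

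**Figure D4:**
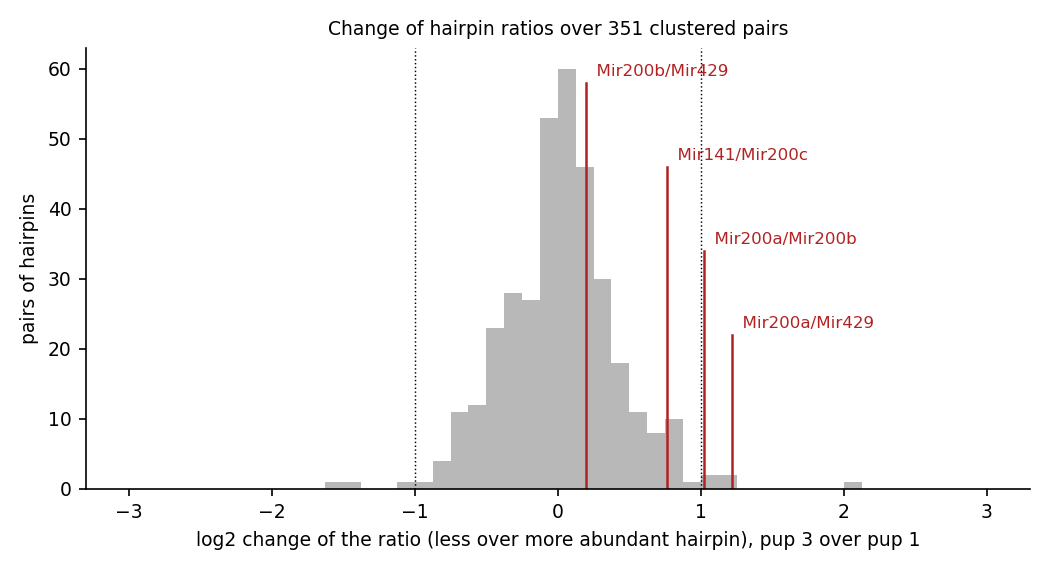
Histogram of the log2 change, pup 3 over pup 1, in the ratio of the less to the more abundant hairpin of a pair, for 351 clustered pairs. Red lines mark the family's 4 pairs (their height only places the labels) and dotted lines 2-fold. Mir200b/Mir429 lies near the middle at 0.20, and Mir200a/Mir429, at 1.22, lies near the edge without passing the test.

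The proportion between the loci did not differ between the pups beyond counting error, while the level of each locus did. The chromosome 4 locus gave 76.0% of the family's 1898 counts in pup 3 (74.0 to 77.9%) and 77.5% of its 222 counts in pup 1 (71.4 to 82.8%). In CPM, the chromosome 4 locus held 451 in pup 3 and 73.6 in pup 1, and the chromosome 6 locus 143 in pup 3 and 21.4 in pup 1. Each seed group has a pair of strands from the different chromosomes that differ at 2 positions. Mir200b and Mir200c stood at 0.964 counts of Mir200b per count of Mir200c in pup 3 and 0.913 in pup 1, a 1.06-fold change with an interval of 0.663 to 1.69-fold. Mir200a and Mir141 stood at 1.27 counts of Mir200a per count of Mir141 in pup 3 and 1 in pup 1, a 1.27-fold change with the wide interval of 0.226 to 7.06-fold.

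By seed, the 3 hairpins with AAUACUG held 92.4% of the family's counts in pup 3 (91.1 to 93.5%) and 96.4% in pup 1 (93.0 to 98.4%). Those with AACACUG held 7.64% in pup 3 (145 counts, 6.48 to 8.93%) and 3.60% in pup 1 (8 counts, 1.57 to 6.98%). Sums over the seed groups and loci were given no test, since the members were chosen with earlier results of these data known.

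From the 5 family members 10 pairs can be formed. For all 10, the interval for the change of their ratio between the pups held 1. Pairs with Mir200a or Mir141, at 4 counts each in pup 1, had wide intervals, such as 0.226 to 7.06-fold for Mir200a with Mir141. Constant proportions are therefore not shown by this count. Among the 10 pairs of a family member with Mir203 or Mir205, the interval held 1 in 0. The change ran from 3.68-fold for Mir429 with Mir205 to 13.0-fold for Mir200a with Mir203, always towards the family member in pup 3. All these pairs reuse the counts of the same 7 hairpins, so they restate the single-hairpin ratios above. How often such an interval holds 1 for other pairs of genes was not counted. For Mir203 against Mir205 the interval held 1, at 19.2 counts of Mir203 per count of Mir205 in pup 3 and 26.2 in pup 1 (0.506 to 1.05-fold). The family thus took 47.5% of the counts of the 7 hairpins in pup 3 and 14.3% in pup 1. In all, the family held 594 CPM in pup 3 (568 to 621) against 94.99 CPM in pup 1 (82.9 to 108).

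MicroRNAs that mark other cells, of the brain or next to it, were read beside the family. In whole tissue, fewer cells of a type and less RNA per cell cannot be told apart. Other microRNAs of epithelia (Mir31, Mir192, Mir194-1, Mir194-2 and Mir215) summed to 476 CPM in pup 3 against 533 CPM in pup 1. Of these 5, 3 were detected at 10 counts in each library and 0 were called. Mir194-1 (6 counts in pup 3 and 3 in pup 1) and Mir215 (5 and 4) had too few counts to be tested. Of the 372 genes tested, 11 (2.96%) were called, so 0 called is the usual outcome for so short a list, here and below. At any fold, 44.1% of the 372 had an adjusted Fisher's exact p under 0.05. Mir31, of skin and gut epithelium, had 242 CPM in pup 3 against 255 CPM in pup 1, and Mir194-2, of gut and kidney epithelium, had 134.6 and 136 CPM. Mir192 was lower in pup 3 by less than 2-fold, at 95.5 against 138 CPM (0.565 to 0.778-fold, adjusted Fisher's exact p = 1.36e-05).

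Markers of the choroid plexus and multiciliated cells, a further epithelium of the brain, summed to 4310 CPM in pup 3 against 3943 CPM in pup 1, with 5 of 7 detected and 0 called. Mir449a, a microRNA of multiciliated cells, had 2038 CPM in pup 3 against 1647 CPM in pup 1, and Mir204, of choroid plexus and pigment epithelium, had 1178 and 1349.5 CPM. The pineal gland, which adjoins the dorsal midbrain, and sensory cells express the miR-183 cluster, which held 614 CPM in pup 3 against 401 CPM in pup 1, with 3 of 3 detected and 0 called. Mir182 had 296 CPM in pup 3 against 193 CPM in pup 1, Mir183 had 207 and 129 CPM, and Mir96 had 110 and 79.2 CPM. All 3 passed the adjusted Fisher's exact test below 2-fold (p = 1.68e-13 for Mir182, 1.54e-11 for Mir183 and 0.000616 for Mir96). Passing below 2-fold was not particular to this list. Mir449a, Mir34c, Mir137 and Mir153 of other lists also passed the adjusted Fisher's exact test, higher in pup 3. Mir126a, Mir204, Mir219a-2, Mir150 and Mir214 passed it too, lower in pup 3.

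Neuroendocrine and pituitary markers summed to 8290 CPM in pup 3 against 5749 CPM in pup 1, with 4 of 4 detected and 0 called. Mir7b had 6242 CPM in pup 3 against 4261 CPM in pup 1, Mir7-1 had 1181 and 696 CPM, Mir7-2 had 589 and 555 CPM, and Mir375, of islet and pituitary cells, had 278 and 237 CPM. Below 2-fold, Mir7b (p = 5.19e-220), Mir7-1 (4.04e-74) and Mir375 (0.00791) passed the adjusted Fisher's exact test, and Mir7-2 (0.189) did not. The sums of the miR-183 and neuroendocrine lists were higher in pup 3 at ratios of 1.53 and 1.44, against 6.25 for the family by CPM, and their part in the difference was not tested.

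Markers of neurons summed to 38872 CPM in pup 3 against 33330 CPM in pup 1. Mir137 at 26512 and 22082 CPM and Mir153 at 9902 and 8701 CPM led the list and were higher in pup 3. Mir132 stood at 2332.8 CPM in pup 3 against 2423.5 CPM in pup 1 (log2 ratio -0.11, 0.892 to 0.956-fold after TMM scaling). It did not pass the adjusted Fisher's exact test on unscaled counts (p = 0.0667). Mir212 was nearly level, at a log2 ratio of -0.03, so the list was not higher throughout. The oligodendrocyte list held 1549 CPM in pup 3 against 1656 CPM in pup 1, led by Mir338 at 791 and 748 CPM and Mir219a-2 at 582 and 718 CPM. Endothelial Mir126a held 30095 and 36188 CPM, and the mural and mesenchymal list 7374 and 7506 CPM, led by Mir143 at 6947 and 7032 CPM and Mir214 at 206 and 245 CPM. The microglia and leukocyte list held 549.6 and 611 CPM over 3 of 4 markers (Mir142 was not analysed here), led by Mir150 at 212.5 and 262 CPM and Mir146 at 168 and 185 CPM.

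The erythroid list held 74.2 CPM in pup 3 against 124.5 CPM in pup 1, with Mir451a called lower in pup 3 at 31.0 against 86.4 CPM and Mir144 at 29.1 against 20.1 CPM. Hepatocyte Mir122 held 47.9 and 58.6 CPM. Striated muscle held 20.03 and 19.7 CPM, nearly all Mir206, with Mir1a-1, Mir133a-1 and Mir133a-2 at 0 counts in both pups and Mir1a-2 not analysed here. Mir451a was the 1 marker called of 36 tested in the 12 lists, beside 11 of 372 (2.96%) over all genes tested.

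**Figure D5:**
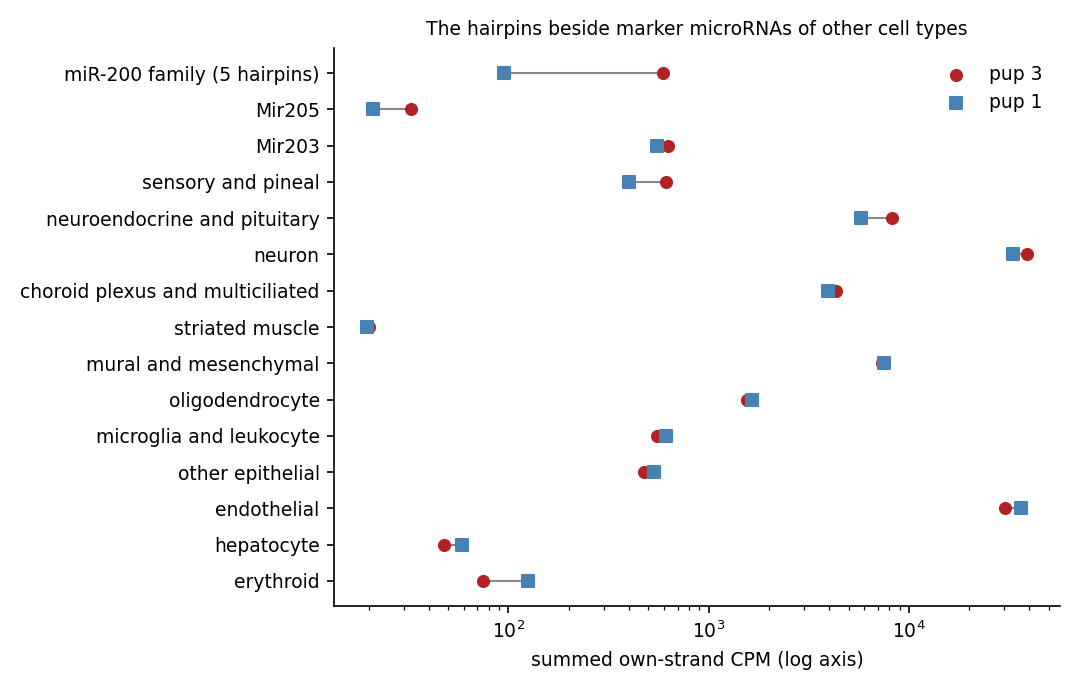
Summed own-strand CPM on a log axis in pup 3 (red circles) and pup 1 (blue squares) for the miR-200 family, Mir205, Mir203 and, below them, 12 lists of marker microRNAs sorted by their ratio. The family lies at 594 CPM in pup 3 against 94.99 CPM in pup 1, Mir205 at 32.5 against 20.97 CPM, and the list with the highest ratio of the 12, the miR-183 cluster, at 614 against 401 CPM.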

How the data were processed

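Small RNA libraries of 2 newborn mouse midbrains were analysed. The authors deposited unnormalized counts for each gene on either, own and opposite strand, made from alignments to mm10 with the GENCODE M4 annotation, per the deposited descriptions; no aligner or counter is named in the sources used here. Own-strand counts were used. Rows that name no gene held 56.7% of all reads in pup 3 and 57.2% in pup 1, and stayed out of totals and tests. Both arms of a hairpin are counted together.

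Symbols and positions came from GENCODE M21 (1894 of 1973 genes matched) and sequences from RefSeq. Ratios of pup 3 over pup 1 used TMM scaling (edgeR 4.0.16) and a prior count of 0.5, while the Fisher's exact p beside them used unscaled counts and totals. Each gene with a mean count of at least 10 had a two-sided Fisher's exact test against the rest of its library (SciPy 1.17.1), Benjamini-Hochberg adjusted over all genes tested, and pairs of same-strand hairpins within 10 kb had one on their 2 counts in each pup, adjusted over all pairs. Fold changes of pairs in log2 used a pseudocount of 0.5, their intervals none. Intervals were exact Poisson, Clopper-Pearson or conditional. The minimum of 10 let Mir200a and Mir141 be tested. Calculations were tested on simulated data.

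The members, lists and tests were chosen with earlier results of these data known. Named genes were the members, their neighbours in mean CPM, the 5 genes of nearest ratio and the 2 highest members of each of 12 marker lists; further markers were named after their values were seen. Alternatives were other scalings (DESeq2 1.42.0 size factors, plain CPM), priors, minimums, fold thresholds, denominators and distances, either-strand counts, hairpin length and each pup alone.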

Additional observations from a re-analysis of the deposited data

Results flagged for a closer look

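Opposite-strand counts, a column outside the main measurement, were above the 3 counts that a count of 0 allows at 1 of the 7 hairpins. Mir203 had 37 opposite-strand counts in pup 3 and 17 in pup 1, or 1.82% and 1.30% of its either-strand counts, and the other 6 hairpins had 0 in both pups. Over all genes, 3195277 of 3307646 either-strand counts were own-strand in pup 3 and 2337113 of 2415344 in pup 1. The opposite-strand share of Mir203 was thus below that of all genes summed in each pup. RefSeq places the hairpin Gm51289, which gives miR-203b, across Mir203 on the minus strand of chromosome 12 from 112130887 to 112130946 (GRCm38.p6). Its 3p strand is shown with the seed in capitals, since it has another seed than Mir203 and would be counted under the opposite strand of Mir203 here.
miR-203b-3p (chromosome 12): uUGAACUGucaagaaccacugg
Whether the opposite-strand reads came from miR-203b was not tested.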

How the results depend on the processing

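The number of genes called moved with the thresholds: 6 of 286 genes at a minimum mean of 50 counts (3 of them members, as Mir200a and Mir141 were then untested), 25 at 1.5-fold, 6 at 3-fold and 164 at any fold, in place of 11, with 5 members called at 1.5-fold and at 3-fold and 7 at any fold. No ratio of a member reversed or changed its call under the other scalings, priors, minimums that kept it or either-strand counts. Scalings and priors could move only the ratio, since the Fisher's exact p uses the unscaled counts and totals. None of the 4 family pairs was called under another distance or minimum that kept it, with 4 to 8 pairs called in all. Either-strand counts cannot move the shares, since the family had 0 opposite-strand counts. In each pup alone, the share of Mir200a in its cluster was 5.62% without pup 1 and 2.33% without pup 3, that of Mir141 14.0% and 8%, and that of the AACACUG hairpins in the family 7.64% and 3.60%. Divided by hairpin length, Mir141 came above Mir200a. Mean levels moved with the denominator, Mir203 to 253 CPM over all reads, and those of the family with the pup, as given per pup above. No paired analysis was possible because there is 1 group. With 2 pups, no ratio can be had without either of them, and depth limits Mir200a and Mir141, at 4 counts in pup 1.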
